A study of Mus musculus with 4 samples.

Results

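The genes described here are the drug-metabolising cytochromes P450 of the Cyp3a family, Cyp2b10, the xenobiotic receptors Pxr (gene Nr1i2) and Car (gene Nr1i3), and Por. They were taken as every probe set of the value table that names 1 of the 9 symbols alone, a probe set being the group of array oligonucleotides that measures one transcript. Of the 9 genes, 8 had such a probe set, and 11 of the 45037 probe sets belonged to them. A filter on low values, which asked that any 1 of the 4 arrays read a probe set over its own 20th percentile, left 10 of these 11 and 38405 of all probe sets, so that 7 of the 9 genes were tested. Cyp3a16 lay under the filter on all arrays, and Por was not analysed here, since no probe set was paired with its name. A gene with several probe sets is represented by the kept one with the highest mean, called the main probe set.

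Total RNA of whole livers was measured on Affymetrix 3' expression arrays, 1 array per liver, to compare 2 Cnot3KO livers with 2 Control livers from C57BL/6 mice 4 weeks after birth. In Cnot3KO mice the floxed Cnot3 gene, which encodes a subunit of the Ccr4-Not deadenylase complex, was deleted by Cre recombinase under the albumin promoter. This promoter acts in hepatocytes and in the fetal hepatoblasts before them. The study takes postnatal cells without recombination to be non-hepatic, such as cholangiocytes. Whether every other cell of the liver kept Cnot3 is not known here. Control mice carry a wild-type label, while the methods of the study allow controls with floxed alleles and no Cre, or with Alb-cre and at most 1 floxed allele, and the sources used here do not say which of these the 2 Control livers were. The livers are 2 samples per group whose labels name no litter, so each p measures the spread between these samples only.

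Pxr and Car are nuclear receptors that sense drugs, bile acids and other foreign or endogenous lipids, pair with the retinoid X receptor Rxra and switch on genes that clear such compounds. In mouse liver Cyp3a11 is the classical target of Pxr and Cyp2b10 that of Car, and each receptor also acts on the targets of the other. Car is held in the cytoplasm in part by signalling from the epidermal growth factor receptor Egfr, and phenobarbital releases it. A P450 enzyme needs electrons, which Por and cytochrome b5 hand on, and a haem group.

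All values are log2 RMA intensities. RMA is the method by which the authors corrected, normalized and summarised the probes, and a difference is Cnot3KO minus Control with its standard error (SE) from limma and n = 2 livers per group. Intervals are 95% intervals of that fit, and each p is a Benjamini-Hochberg adjusted one, with all 38405 kept probe sets in the adjustment and calls made under 0.05. At that threshold 3258 of all kept probe sets were higher in Cnot3KO livers (8.48%) and 1837 lower (4.78%). By genes, each with its main probe set, 2038 of 16758 were higher (12.2%) and 777 lower (4.64%). Against these shares, 0 of the 10 kept probe sets of the xenobiotic genes were called higher and 0 lower in limma. Unadjusted, a p under 0.05 was reached by 2 that were higher, both of Cyp2b10, and by 1 that was lower, that of Cyp3a13, beside 16.5% and 14.5% of all kept probe sets. The methods' t-test gave 0 higher and 1 lower at that p, beside 10.1% and 10.4%. These counts are near those shares. The median difference of the 7 tested genes was -0.050, beside 0.0020 over all genes measured. The groups did not overlap in 6 of the 10 probe sets, beside 62.8% of all kept probe sets, a share close to that of the table.

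The arrays had medians of 3.09 and 3.09 in Cnot3KO and 3.11 and 3.14 in Control. Across kept probe sets, which are not independent replicates, Pearson's r was 0.989 within Cnot3KO, 0.981 within Control and 0.937 to 0.948 between groups. Cnot3 itself read 5.15 and 5.30 in Cnot3KO livers, against 5.99 and 6.04 in Control livers, and was lower by -0.79 ± 0.16 (adjusted p = 0.0372), a call lost when any 1 array was left out (-0.87 to -0.71). The other Cnot3 probe set read 4.35 and 4.06 in Cnot3KO livers and 4.71 and 4.51 in Control livers, and did not pass (-0.40 ± 0.19, adjusted p = 0.218). Which exons they cover is not known here. Of 17 hepatocyte markers 0 were called in either direction, with a median of -0.01. Single markers differed by -1.17 to 0.40. Their summed intensity was 119163 and 123040 in Cnot3KO livers, against 117482 and 118432 in Control livers. In this and the sums below the brightest probe sets weigh most. Albumin read 13.74 and 13.79 in Cnot3KO livers and 13.84 and 13.73 in Control livers. Of the markers of other cells, 7 of 9 for bile duct cells, 9 of 15 for stellate cells and 8 of 17 for macrophages were higher in Cnot3KO livers, and 1 macrophage marker, Cd163, was lower. The summed intensity of the bile duct list was 1391 and 886 in Cnot3KO livers, against 80.2 and 75.0 in Control livers, and that of the stellate list was 6585 and 5081, against 2735 and 2109. That of the macrophage list was 6498 and 7090 in Cnot3KO livers, against 3424 and 3285 in Control livers. In whole livers fewer cells of a type and less RNA per cell cannot be told apart, and the part of these cells in the results below was not tested.

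**Figure D1:**
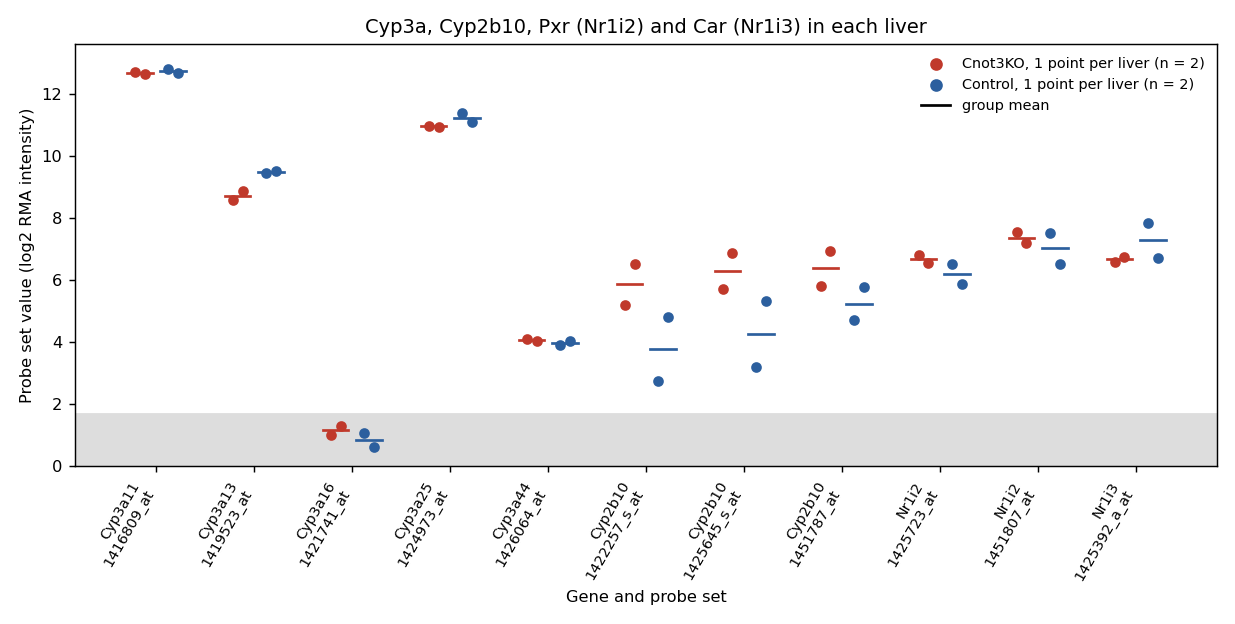
Log2 RMA intensity (vertical axis) of each probe set of the xenobiotic genes (horizontal axis), 1 point per liver, Cnot3KO left of Control, with the group mean as a bar and a gray area that ends at the highest of the 20th percentiles of the arrays. Cyp3a11 lies between 12.64 and 12.79 on all 4 arrays, Cyp3a16 lies in the gray area, and the Cyp2b10 points of each group lie far apart. Heights of different probe sets cannot be set against each other.

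Pxr, the sensor of steroids and drugs that drives Cyp3a11, was read by 2 probe sets. The main one (1451807_at) read 7.55 and 7.18 in Cnot3KO livers, against 7.51 and 6.53 in Control livers. The lower Cnot3KO value lay between the Control values, so the groups overlapped. The difference was 0.35 ± 0.35 (interval -0.54 to 1.24, adjusted p = 0.541). Without Control replicate 1 it was 0.84 and without Control replicate 2 it was -0.14, so its direction rested on single livers. The other Pxr probe set (1425723_at) read 6.79 and 6.54 in Cnot3KO livers and 6.52 and 5.86 in Control livers. These groups did not overlap, by a gap far smaller than the distance between the Control livers. The difference was 0.48 ± 0.26 (interval -0.19 to 1.14, adjusted p = 0.282).

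Car, the receptor that phenobarbital activates and that drives Cyp2b10, had 1 probe set (1425392_a_at). It read 6.57 and 6.75 in Cnot3KO livers, against 7.83 and 6.72 in Control livers. Control replicate 1 stood above the other livers, which lay close together. The difference was -0.61 ± 0.37 (interval -1.56 to 0.33, adjusted p = 0.321). Without Control replicate 1 it was -0.06, and without Control replicate 2, which leaves the high liver as the lone Control, it was -1.17 and passed (adjusted p = 0.0482). The lone sample is assumed there to vary like the other group.

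Of 15 partners and modifiers measured (coactivators, chaperones, retinoid X receptors and Egfr), 0 were higher and 2 lower, with a median of 0.07. Egfr, whose signalling keeps Car out of the nucleus, read 7.23 and 7.34 in Cnot3KO livers, against 10.11 and 10.61 in Control livers. All Cnot3KO values lay far under the Control values, and the difference of -3.07 ± 0.22 (adjusted p = 0.00422) stayed called with each array left out. Of its 6 kept probe sets 4 were called lower. Rxra, the obligate partner of Pxr and Car on DNA, read 7.66 and 7.58 in Cnot3KO livers and 8.80 and 8.56 in Control livers. It was lower by -1.07 ± 0.17 (adjusted p = 0.0206) on its main probe set, 1 of 3 kept. That call was lost without either Cnot3KO liver or without Control replicate 1 (adjusted p up to 0.0936). The coactivator Ppargc1a, named after its values were seen, read 6.89 and 7.16 in Cnot3KO livers and 6.70 and 5.95 in Control livers, a difference of 0.70 ± 0.29 that did not pass (adjusted p = 0.175), while 1 of its 5 kept probe sets was called higher.

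Of 15 hepatocyte transcription factors known to act on the P450 genes or their receptors, 0 were higher and 1 lower, with a median of -0.68. The factor called was Cebpb, a leucine zipper factor of the acute phase, at 9.78 and 9.47 in Cnot3KO livers, against 10.45 and 10.58 in Control livers (-0.89 ± 0.19, adjusted p = 0.0378). The call was lost whenever 1 array was left out (adjusted p 0.0929 to 0.185). The other factors given here were chosen with their values in view. Hnf4a, the nuclear receptor that maintains P450 expression in hepatocytes, differed by -0.25 ± 0.17 (adjusted p = 0.372). Ppara, the fatty acid receptor, read 7.00 and 6.61 in Cnot3KO livers and 9.19 and 7.90 in Control livers (-1.74 ± 0.44, adjusted p = 0.0596), with 1 of its 3 kept probe sets called lower. Without Control replicate 2, which leaves the higher Control liver alone, Ppara was -2.38, and without Control replicate 1 it was -1.10. Cebpa differed by -0.76 ± 0.28 (adjusted p = 0.137) and Nr5a2 by -0.74 ± 0.17 (adjusted p = 0.0508), with 1 of its 4 kept probe sets called lower.

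Dbp, Tef and Hlf are factors that the circadian clock drives and that act on Car in mouse liver. Dbp read 7.41 and 5.49 in Cnot3KO livers and 10.37 and 3.64 in Control livers. The Control livers held both the highest and the lowest Dbp value of the series. Tef read 7.09 and 6.31 in Cnot3KO livers, against 9.40 and 6.31 in Control livers, with Control replicate 1 again above the other livers. Hlf averaged 5.14 in Cnot3KO livers and 6.32 in Control livers (-1.18 ± 0.31, adjusted p = 0.0649), and 1 of its 2 kept probe sets was called lower. Without Control replicate 2, which leaves the higher Control liver alone, Hlf was -1.59, and without Control replicate 1 it was -0.77. The Dbp difference was -0.56 ± 2.14 and the Tef difference -1.15 ± 0.98 (adjusted p = 0.882 and 0.467). Without Control replicate 2, which leaves the high liver as the lone Control, Tef was -2.70, and without Control replicate 1 it was 0.39. Control replicate 1, the liver with the high Car value, was thus the liver with the highest Dbp, Tef and Hlf values, and the part of this in the Car value was not tested. The hour at which the livers were taken is not given in the sources used here.

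**Figure D2:**
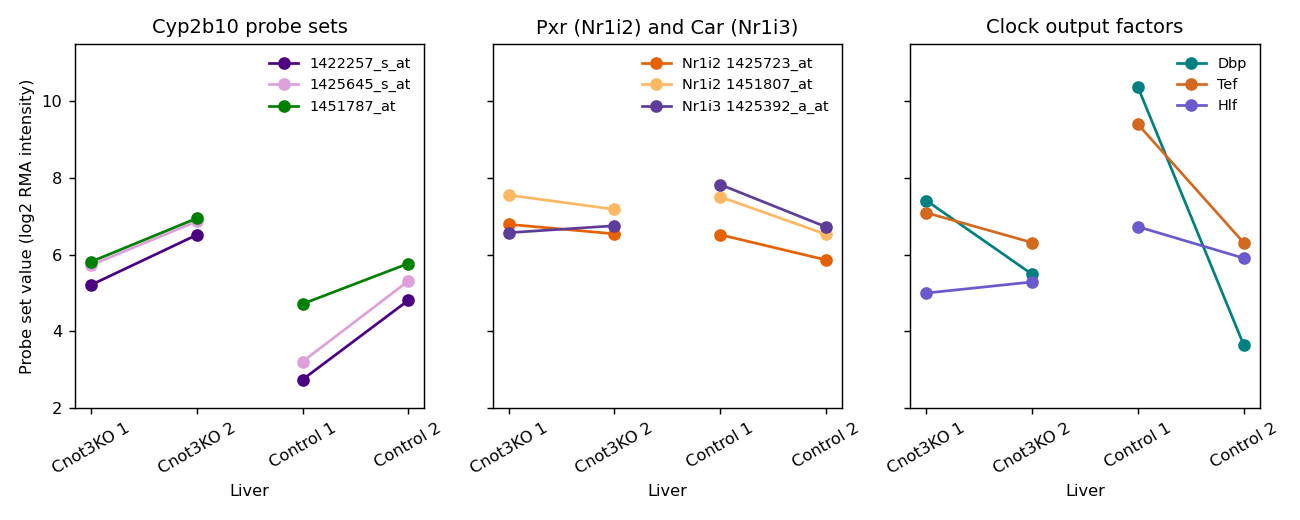
Log2 RMA intensity (vertical axis) in each liver (horizontal axis) for the 3 Cyp2b10 probe sets, the probe sets of Pxr and Car, and the clock-driven factors Dbp, Tef and Hlf, with lines joining livers of 1 group. Replicate 2 has the higher Cyp2b10 value in each group, and Control replicate 1 holds the highest Car value (7.83) and the highest Dbp value (10.37).

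The Cyp3a genes lie in a cluster on chromosome 5, where RefSeq places Cyp3a16, Cyp3a41b, Cyp3a41a, Cyp3a44, Cyp3a11 and Cyp3a25 in that order after Cyp3a13 and Cyp3a57. Their promoters are shown because Pxr and Car bind pairs of short half-sites, and the members of the cluster differ in the half-sites that lie before their start. RefSeq promoter windows (GRCm38.p6, minus strand) were searched on both strands for the half-sites AGGTCA and AGTTCA over 250 bases before the start. The 4 stretches run from base -180 to base -81 of the start. Capitals mark each match, and a match on the other strand appears as TGACCT or TGAACT.
Cyp3a11, chr5:145879935-145880034, minus strand: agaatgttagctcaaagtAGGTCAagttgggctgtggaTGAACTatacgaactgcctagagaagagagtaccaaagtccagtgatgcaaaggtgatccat
Cyp3a16, chr5:145469804-145469903, minus strand: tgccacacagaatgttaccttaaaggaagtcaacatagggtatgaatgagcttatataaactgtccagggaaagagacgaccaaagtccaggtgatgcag
Cyp3a25, chr5:146009699-146009798, minus strand: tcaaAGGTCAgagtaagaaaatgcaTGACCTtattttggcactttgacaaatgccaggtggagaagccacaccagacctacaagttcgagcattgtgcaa
Cyp3a44, chr5:145805955-145806054, minus strand: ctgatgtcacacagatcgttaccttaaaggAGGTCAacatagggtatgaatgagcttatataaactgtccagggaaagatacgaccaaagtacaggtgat
The windows of Cyp3a11 and Cyp3a25 each held 2 half-sites, that of Cyp3a44 held 1 and that of Cyp3a16 held 0. The Cyp3a13, Cyp2b10, Nr1i2, Nr1i3 and Por windows held no match of these letters. AGGTCA occurred in 14% and AGTTCA in 11.8% of 32851 RefSeq windows of that length. A match is a description of letters and no site of binding. Half-sites farther from the start, or with other letters, were not searched, so a window without a match does not show that a gene lacks them. Over these bases Cyp3a16 and Cyp3a44 were 92.9% identical, Cyp3a11 and Cyp3a16 76.6%, and Cyp3a11 and Cyp3a25 55.6%. The transcripts of this family are also alike, and whether probes of one gene also catch RNA of another is not known here.

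Cyp3a11, the principal Cyp3a enzyme of adult mouse liver, stood at nearly the same level in all livers. Its probe set (1416809_at) read 12.71 and 12.64 in Cnot3KO livers, against 12.79 and 12.67 in Control livers. The groups overlapped. The difference was -0.050 ± 0.16 (adjusted p = 0.860), and its interval of -0.46 to 0.36 corresponds to a Cnot3KO over Control ratio between 0.729 and 1.28. These intensities were in the upper range of the array, where the highest value of the table was 16933 on the linear scale and Cyp3a11 averaged 6551 in Cnot3KO livers and 6785 in Control livers.

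Cyp3a13, a Cyp3a enzyme known in mouse from the intestine as well as the liver, had the value nearest to a call. Its probe set (1419523_at) read 8.56 and 8.87 in Cnot3KO livers, against 9.44 and 9.52 in Control livers. Both Cnot3KO values lay under both Control values. The difference was -0.76 ± 0.18 (interval -1.23 to -0.30), a Cnot3KO over Control ratio of 0.589, and missed the threshold at an adjusted p of 0.0541. It passed when probe sets with a mean under the 50th percentile were left out of the adjustment (adjusted p = 0.0479) and when arrays were centred on hepatocyte markers (-0.84, adjusted p = 0.0343). With 1 array left out it ranged from -0.92 to -0.61, and adjusted p from 0.111 to 0.281.

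Cyp3a25, an adult liver form next to Cyp3a11, read (1424973_at) 10.95 and 10.94 in Cnot3KO livers and 11.37 and 11.08 in Control livers. The Cnot3KO livers lay just under the lower Control liver. The difference was -0.28 ± 0.18 (interval -0.73 to 0.17, adjusted p = 0.345). Cyp3a44, a form known as higher in female mice, read (1426064_at) 4.12 and 4.04 in Cnot3KO livers and 3.91 and 4.04 in Control livers, and the groups overlapped. Its difference was 0.10 ± 0.16 (interval -0.30 to 0.51, adjusted p = 0.696). Cyp3a16, the form of late fetal and newborn liver in mouse, read (1421741_at) 1.02 and 1.30 in Cnot3KO livers and 1.07 and 0.62 in Control livers, in each case under the 20th percentile of its array, and was not tested. Of 13 fetal liver genes 8 were higher and 0 lower, with a median of 1.94, among them Afp at 8.24 and Igf2 at 7.50 (adjusted p = 0.00212 and 0.000836). Cyp3a16 cannot be set against them, since its probe set read too low. Cyp3a41a and Cyp3a41b, also known as higher in females, share 1 probe set that names both. It read 5.59 and 6.68 in Cnot3KO livers, against 4.89 and 5.41 in Control livers, a difference of 0.99 ± 0.40 that did not pass (interval -0.02 to 2.00, adjusted p = 0.167).

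**Figure D3:**
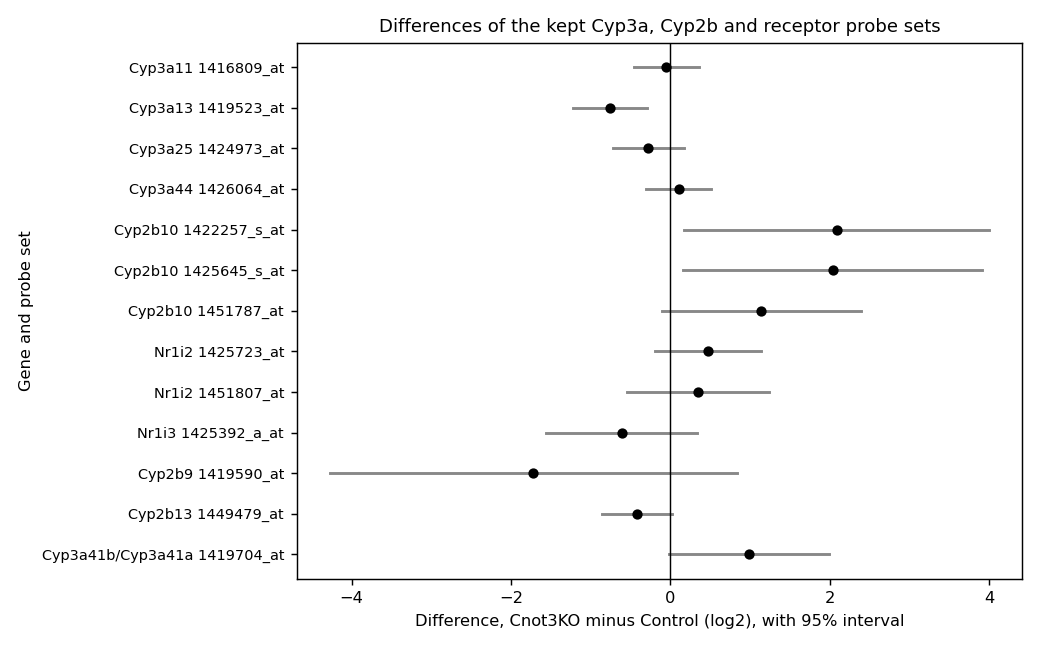
Difference of each tested Cyp3a, Cyp2b and receptor probe set (horizontal axis, Cnot3KO minus Control, log2) with its 95% interval from limma, 1 row per probe set, n = 2 livers per group. The Cyp3a11 interval runs from -0.46 to 0.36, that of Cyp3a13 lies under 0, and those of the Cyp2b10 probe sets are the widest of the members. The last rows add Cyp2b9, Cyp2b13 and the probe set that Cyp3a41a and Cyp3a41b share.

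Cyp2b10, the phenobarbital-inducible P450 that reads out Car activity, had higher values in both Cnot3KO livers than in either Control liver on all 3 of its probe sets, and none of the differences passed the adjusted test. These probe sets read the same livers and are not independent, and the groups did not overlap in 62.8% of all kept probe sets. The main probe set (1451787_at) read 5.81 and 6.95 in Cnot3KO livers, against 4.71 and 5.77 in Control livers. The groups did not overlap, but the lower Cnot3KO liver and the higher Control liver were nearly level. The difference was 1.14 ± 0.50 (interval -0.11 to 2.39, adjusted p = 0.191). A probe set that its suffix marks as shared by several transcripts (1422257_s_at) read 5.21 and 6.51 in Cnot3KO livers, against 2.74 and 4.81 in Control livers. Its difference was 2.09 ± 0.76 (interval 0.18 to 4.00, adjusted p = 0.136), a Cnot3KO over Control ratio of 4.26. With 1 array left out it did not pass, at 1.06 in the absence of Control replicate 1 and 3.12 in the absence of Control replicate 2. The third (1425645_s_at), also of that kind, read 5.73 and 6.87 in Cnot3KO livers and 3.21 and 5.31 in Control livers. Its difference was 2.04 ± 0.75 (interval 0.16 to 3.91, adjusted p = 0.137), and 0.99 and 3.09 with the same arrays left out.

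The livers of 1 group differed almost as much in Cyp2b10 as the groups did. On the main probe set the livers lay 1.14 apart in Cnot3KO and 1.05 apart in Control, and in each group replicate 2 was the higher. With 1 array left out, the main probe set ranged from 0.57 to 1.71 and did not pass (adjusted p 0.104 to 0.537).

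None of the other Cyp2b genes measured was called. Cyp2b9, a female-predominant form, read 1.39 and 1.45 in Cnot3KO livers and 1.49 and 4.79 in Control livers. Control replicate 2 stood alone, and the other Control liver was nearly level with the Cnot3KO livers. The other 3 arrays read it under their 20th percentile, so it was tested only because of that 1 liver. The difference was -1.72 ± 1.02 (adjusted p = 0.308), and without Control replicate 2 it was -0.07 (adjusted p = 0.822). Without Control replicate 1, with the high liver as the lone Control, it was -3.37 (adjusted p = 0.0317), an outcome fixed by the array left out. Cyp2b13, a closely related female-predominant form, read 1.65 and 1.82 in Cnot3KO livers and 2.25 and 2.06 in Control livers (-0.41 ± 0.17, adjusted p = 0.180). Cyp2b19 lay under the filter on all 4 arrays.

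Genes of the pathway that were measured beside the receptors and the Cyp3a and Cyp2b enzymes moved in both directions. Of 43 further genes known as targets of Pxr or Car in rodent liver, 36 were measured. The others, among them Ugt1a1, Sult2a1 and Cyp2a5, had no kept probe set that names them alone. Of the 36, 6 were higher and 10 lower in Cnot3KO livers, beside 12.2% and 4.64% of all genes measured. Their median was -0.45. The 4 with the largest called difference were all lower. Cyp2c37, a Cyp2c enzyme that Car induces, read 6.24 and 6.67 in Cnot3KO livers, against 10.41 and 9.85 in Control livers. It was lower by -3.67 ± 0.27 (adjusted p = 0.00423), and this call held with each array left out. Cyp2c54 read 5.40 and 7.27 in Cnot3KO livers, against 11.45 and 11.03 in Control livers (-4.91 ± 0.60, adjusted p = 0.0111). Cyp2c50 read 8.46 and 9.58 in Cnot3KO livers, against 11.96 and 11.98 in Control livers (-2.95 ± 0.37, adjusted p = 0.0119). Every Cnot3KO value of these 3 Cyp2c genes lay more than 1 log2 unit under every Control value. Thrsp, a regulator of lipid synthesis that Car and Pxr ligands raise, was lower by -3.17 ± 0.61 (adjusted p = 0.0310). The calls of Cyp2c54, Cyp2c50 and Thrsp were lost without Control replicate 1 (adjusted p = 0.0661, 0.0650 and 0.0949), and those of Cyp2c50 and Thrsp also without Control replicate 2 (adjusted p = 0.0528 and 0.115).

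The 6 targets that were higher, and Gstt1, were named after their values were seen. Among them were 4 glutathione S-transferases, which couple glutathione to reactive compounds. Of the other 4 of that family on the list, Gstt1 was lower (-0.97 ± 0.18, adjusted p = 0.0285, and 0.0664 to 0.156 with 1 array left out) and 3 were not called (-0.45 to 0.05). Gsta2 read 10.85 and 10.71 in Cnot3KO livers, against 8.76 and 8.85 in Control livers, and was higher by 1.98 ± 0.16 (adjusted p = 0.00565). Gstm3 was higher by 1.67, Gsta4 by 1.26 and Gstm2 by 1.02 (adjusted p = 0.0168, 0.0153 and 0.0306). The fatty acid transporter Cd36 read 8.52 and 8.52 in Cnot3KO livers, against 6.75 and 6.62 in Control livers (1.83 ± 0.16, adjusted p = 0.00596). Gsta2 and Cd36 stayed called with each array left out, while the calls of Gstm3, Gsta4 and Gstm2 were lost without Cnot3KO replicate 1 (adjusted p 0.0570 to 0.141). Those of Gsta4 and Gstm2 were also lost without Control replicate 1 (adjusted p = 0.0558 and 0.0891), that of Gsta4 without Control replicate 2 (0.0519) and that of Gstm2 without Cnot3KO replicate 2 (0.0938). Cyp2c65 read 2.23 and 2.32 in Cnot3KO livers and 1.42 and 1.42 in Control livers. Both Control values lay under the 20th percentile of their arrays, so it passed the filter only through the Cnot3KO livers, and its call (0.86, adjusted p = 0.0277) supports nothing by itself. It lost the call with any 1 array left out (adjusted p 0.0678 to 0.145).

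Other targets were also chosen after their values were seen, and those given before Cyp2c29 were not called on their main probe sets. Of the 36 targets, 14 had a difference above 0. The drug efflux pump Abcb1a read 6.83 and 5.18 in Cnot3KO livers and 4.20 and 2.94 in Control livers (2.43 ± 0.65, adjusted p = 0.0682), and 1 of its 2 kept probe sets was called higher. Without Cnot3KO replicate 2, which leaves the higher Cnot3KO liver alone, the difference was 3.26, and without Cnot3KO replicate 1 it was 1.61. The basolateral pump Abcc4 read 6.30 and 5.17 in Cnot3KO livers and 4.27 and 3.79 in Control livers (1.70 ± 0.40, adjusted p = 0.0519). Without Cnot3KO replicate 2, which again leaves the higher Cnot3KO liver alone, it was 2.27, and without Cnot3KO replicate 1 it was 1.14. Cyp2c55, which Car induces, differed by 0.97 ± 0.26 (adjusted p = 0.0674) and the epoxide hydrolase Ephx1 by 0.71 ± 0.24 (adjusted p = 0.114). Cyp2c29, a target of Car as well, was called lower, by -1.28 ± 0.24 (adjusted p = 0.0292). That call did not pass without Cnot3KO replicate 1 or either Control liver (adjusted p 0.0820 to 0.111). Slco1b2, Aldh1a1 and Sult5a1 were also called lower (-1.64, -1.61 and -1.95, adjusted p = 0.00923, 0.0152 and 0.0400), Slco1b2 on 2 of its 4 kept probe sets.

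**Figure D4:**
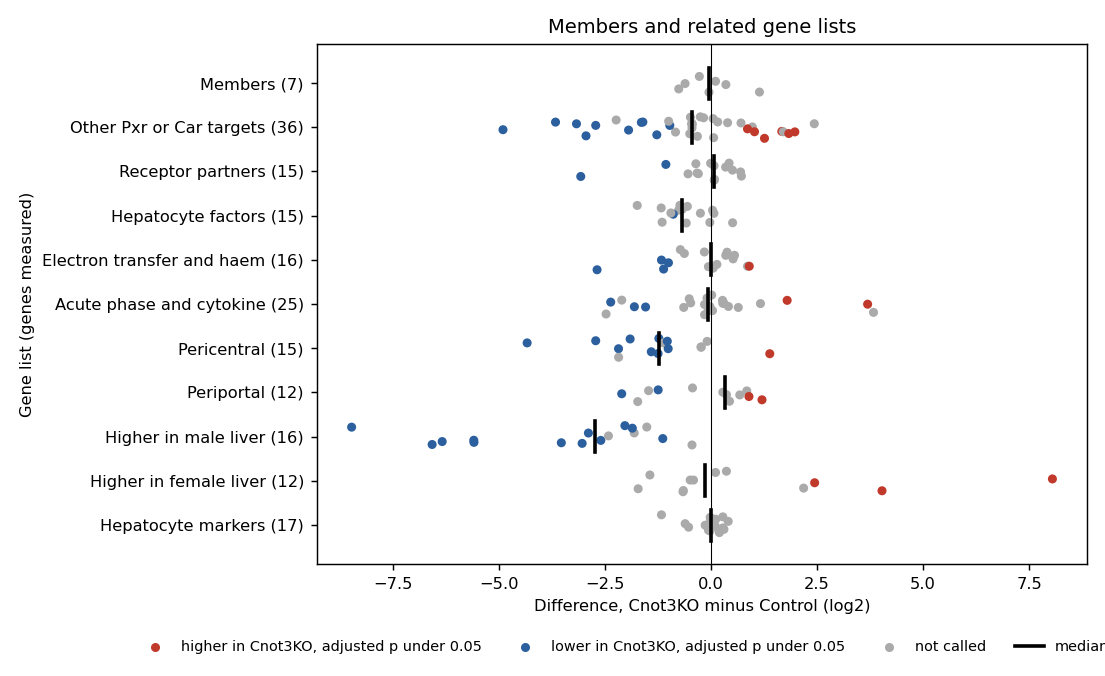
Difference of each gene's main probe set (horizontal axis, Cnot3KO minus Control, log2) for the xenobiotic genes and related lists (rows, with the number of genes measured), with a point for each gene in red (higher), blue (lower) or gray (not called at an adjusted p of 0.05) and a black bar at the median. The 7 xenobiotic genes are all gray, the other Pxr or Car targets spread to both sides of 0 and the genes higher in male liver lie under 0.

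The list of electron transfer and haem genes, which includes genes of haem breakdown, gave 1 gene higher and 4 lower of 16, with a median of -0.01. Cyb5b, the cytochrome b5 of the mitochondrial outer membrane, read 6.42 and 7.66 in Cnot3KO livers, against 9.44 and 10.02 in Control livers (-2.69 ± 0.45, adjusted p = 0.0214). Cpox, an enzyme of haem synthesis, was lower by -1.17 ± 0.16 (adjusted p = 0.0134), with values of 6.12 and 6.14 in Cnot3KO livers and 7.32 and 7.28 in Control livers. Pgrmc1, a haem-binding partner of P450 enzymes, was lower by -1.12 ± 0.19, and Cyb5r3, the reductase of cytochrome b5, by -1.01 ± 0.16 (adjusted p = 0.0236 and 0.0198). All 4 calls were lost without Control replicate 1 (adjusted p 0.0552 to 0.0892). All but that of Cpox were lost without Control replicate 2 (0.0576 to 0.0834), and all but that of Cyb5b without either Cnot3KO liver (0.0533 to 0.107). Of the kept probe sets, 2 of 3 were called lower for Cyb5b, 2 of 3 for Cpox and 2 of 4 for Cyb5r3. Hmox2, Cyb5a, Alas1 and Fech were chosen with their values in view. The haem oxygenase Hmox2 was higher by 0.90 (adjusted p = 0.0272), a call lost with any 1 array left out (0.0697 to 0.137). The microsomal cytochrome b5 Cyb5a read 11.32 and 11.23 in Cnot3KO livers and 11.90 and 11.92 in Control livers (-0.63 ± 0.16, adjusted p = 0.0591). Alas1, the first enzyme of haem synthesis and itself a target of Pxr and Car, read 11.00 and 11.40 in Cnot3KO livers and 10.55 and 10.14 in Control livers (0.86 ± 0.23, adjusted p = 0.0715). Fech, another enzyme of haem synthesis, differed by -0.72 ± 0.19 (adjusted p = 0.0653), with 2 of its 4 kept probe sets called lower.

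P450 genes follow the axis of the liver lobule, sex and inflammation, and the genes that mark these were read beside them. Of 15 pericentral genes, 1 was higher and 9 lower, with a median of -1.23. The called ones with the largest differences were the glutamate transporter Slc1a2 (-4.34 ± 0.47), Cyp1a2 (-2.72 ± 0.32), glutamine synthetase Glul (-2.18 ± 0.41) and the Wnt pathway gene Lgr5 (-1.91 ± 0.29). Their adjusted p ran from 0.00878 to 0.0292. Cyp1a2 is also counted among the targets above. Of 12 periportal genes, 2 were higher (Cdh1 by 1.20 and Ctsc by 0.89) and 2 lower (Ass1 by -2.11 and Pigr by -1.25), with a median of 0.32. Of these 8 calls all but that of Slc1a2 were lost when some array was left out. Lgr5 was lost without Cnot3KO replicate 1 (adjusted p = 0.0516) and Cyp1a2 and Ass1 without Control replicate 1 (0.0580 and 0.0574). Glul was lost without either Control liver (0.122 and 0.0864), Pigr and Cdh1 without either Cnot3KO liver or Control replicate 1 (0.0592 to 0.0983) and Ctsc without any 1 liver (0.0894 to 0.198). Cyp3a11, which is pericentral in mouse liver, had the difference of -0.050 given above.

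The labels give no sex. All 4 arrays carried RNA of the Y-linked genes, with Eif2s3y at 7.34 and 7.57 in Cnot3KO livers and 7.90 and 7.73 in Control livers. Kdm5d read 5.01 and 4.95 in Cnot3KO livers and 5.08 and 5.18 in Control livers, and Uty 4.82 and 4.79 in Cnot3KO livers and 5.07 and 4.50 in Control livers. Xist, the RNA of the inactive X chromosome, was low on all 4, at 2.14 and 1.99 in Cnot3KO livers and 2.05 and 2.33 in Control livers. Of 16 genes that are higher in male than in female mouse liver, 0 were higher and 12 lower in Cnot3KO livers, with a median of -2.75. Hsd3b5 was lower by -8.48 and Slco1a1 by -6.58 (adjusted p = 0.00317 and 0.00106). Of 12 genes higher in female liver, 3 were higher and 0 lower, with a median of -0.16. These were Sult2a2 (8.05, adjusted p = 0.00422), Cyp17a1 (4.03, adjusted p = 0.0368) and Nipal1 (2.44, adjusted p = 0.0137), the last named after its values were seen. The Cyp17a1 call was lost without either Control liver (adjusted p = 0.137 and 0.118). The list includes Cyp3a44, Cyp2b9 and Cyp2b13, none of which was called.

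Of 25 genes of the acute phase, cytokines and their signalling, 2 were higher and 3 lower, with a median of -0.06. Some of these genes are known to be raised while P450 genes are lowered in inflamed liver. The list also holds others, such as the receptor Il6ra. Lcn2, an iron-carrier binding protein, was higher by 3.69 ± 0.37 and the acute phase protein Orm2 by 1.79 ± 0.34 (adjusted p = 0.00764 and 0.0287). Saa4, an apolipoprotein of the serum amyloid family, was lower by -2.37 ± 0.27 and the interleukin 6 receptor Il6ra by -1.81 ± 0.41 (adjusted p = 0.00939 and 0.0472). Il6ra was called on 1 of its 2 kept probe sets. The Orm2 call was lost without either Cnot3KO liver or Control replicate 1 (adjusted p up to 0.0827), and that of Il6ra without Cnot3KO replicate 2 or either Control liver (up to 0.145). The third gene called lower was Saa3 (-1.55, adjusted p = 0.0196), named because its list had 3.

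The patterns of the main members over the 4 livers were set against those of 16757 other genes, as the distance between log2 values after each was centred on its own mean. This is a description over 4 arrays, and genes with hardly any spread are near each other for that reason alone. Nearest to Cyp3a11 were Stk4, Tmem215 and Rflnb, at distances of 0.018 to 0.019. Nearest to Cyp2b10 were Mrap, Rad51c and Neu3, at 0.20, 0.25 and 0.40. Mrap read 8.54 and 9.86 in Cnot3KO livers and 7.35 and 8.49 in Control livers, so that in it too the groups were set apart by a gap smaller than the distance between livers of 1 group. Nearest to Car were Ldlrad3, Stbd1 and Ubr2, at 0.091, 0.12 and 0.13. Stbd1 read 7.91 and 8.11 in Cnot3KO livers and 9.07 and 8.13 in Control livers, with the same single Control liver above the rest. None of these 9 genes was called.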

How the data were processed

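The authors measured liver RNA of 2 Cnot3KO and 2 Control mice on Affymetrix 3' expression arrays of the mouse genome and deposited linear RMA intensity values (1.27 to 16933), which were turned to log2 with no added constant. The version of RMA, and whether other arrays were normalized with these 4, are not given in the sources used here. No detection calls were used, and with 4 arrays their number sets the precision.

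Samples were grouped by their genotype labels. Of 45037 probe sets, 34945 named 1 gene, 932 several and 9160 none in the platform annotation, for 18193 genes. A RefSeq gene table held the Entrez identifier of 34741 of the first kind and changed 0 symbols. Probe sets under the 20th percentile on every array were left out, after the cut-off of the methods. Groups were compared with lmFit and eBayes of limma 3.58.1 under R 4.3.3, 2-sided, on 5.40 degrees of freedom (3.40 of them prior), adjusted by the Benjamini-Hochberg method over 38405 probe sets. The median SE of a difference was 0.192. The fit was tested on simulated data. Python 3.11.15 with pandas 2.3.3, numpy 2.4.6 and matplotlib 3.10.9 made the tables, promoter searches and figures.

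The members, lists, tests and alternatives were chosen with earlier results of these data known. Named are all member probe sets, other Cyp3a and Cyp2b genes, up to 4 called genes of each pathway list and up to 2 of each other list by size of difference, or the 2 largest where none was called, sex-linked genes, Cnot3, Alb and the 3 nearest patterns of 3 members. Genes outside the rule are named as such. Of the other lists named in this rule, 1 of 15 endothelial genes was higher (Cd34), 1 of 12 lymphoid genes was higher (Ptprc), and 3 of 8 erythroid genes were lower. Alternatives were other filters, scalings, priors, thresholds, a constant of 16, the methods' t-test, the replicate number as a block, leaving out shared probe sets and leaving out each array.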

Additional observations from a re-analysis of the deposited data

How the results depend on the processing

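Counts of called member probe sets, 0 each way, changed under some settings. They became 2 higher with arrays centred on large ribosomal subunit genes (the Cyp2b10 probe sets shared by several transcripts, adjusted p = 0.0380 and 0.0401) and 3 higher with the replicate number as a block (all Cyp2b10, adjusted p 0.0258 to 0.0318). They became 1 lower with the 50th percentile filter, with centring on hepatocyte markers and at a threshold of 0.1 (Cyp3a13 each time), and 0 to 1 lower with 1 array left out (Car, without Control replicate 2). The replicate numbers share no stated litter or day. Replicate 2 minus 1, taken once per group, correlated at 0.232 between the groups across the kept probe sets. The block ended the calls of Cnot3, Cebpb, Ctsc, Gstm2 and Car1 (adjusted p 0.0516 to 0.0648). Car1 is a carbonic anhydrase of the erythroid list and not the receptor Car. With the block Ppara, Abcb1a and Abcc4 were called (0.0369, 0.0179 and 0.0292). Under the block 2967 probe sets were higher and 1716 lower over the whole table.

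Over all kept probe sets the 3258 higher calls became 4967 at a threshold of 0.1, 707 at 0.01, 2139 without probe sets shared by transcripts and 1194 to 1973 with 1 array left out. The 1837 lower calls became 3551, 263, 1213 with log2(value + 16) and 508 to 1394 with 1 array left out. The methods' t-test with Benjamini-Hochberg adjustment gave 0 higher and 1 lower (3860 and 3977 at an unadjusted p under 0.05, beside 6346 and 5550 in limma). Calls were followed with each array left out for 50 of the named genes called. Of these 50, 31 lost the call without some array, 29 of them without Control replicate 1. Some differences that were not called changed sign. With quantile normalization again Cyp3a11 was at 0.0072, Cyp3a44 at -0.012 and Uty at -0.15, with hepatocyte centring Uty was at -0.050, and with centring on array medians Alb was at 0.017. With 1 array left out the differences ran from -0.11 to 0.011 for Cyp3a11, -0.14 to 0.84 for Pxr, -0.26 to 0.31 for Uty, -0.079 to 0.037 for Alb, -3.93 to 2.81 for Dbp and -2.70 to 0.39 for Tef, and reached 0.018 for Xist. The cause of these moves was not tested.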
